A study of Caenorhabditis elegans with 4 samples.

Results

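The regions described here are the narrow binding regions of the transcription factor UNC-62 that lie crowded together in Caenorhabditis elegans embryos. They were chosen by position and width in the list the authors deposited for the whole series. A member is under 800 bp wide and has at least 4 other regions of the list with midpoints within 5 kb of its own. Of the 7964 regions, 706 met both conditions (8.86%), and they fell into 192 loci on all 6 chromosomes. Width and crowding chose the members, so the values of both are given as a description with no test.

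Binding was mapped by chromatin immunoprecipitation and sequencing (ChIP-seq), in which DNA crosslinked to a protein is pulled down with an antibody, and stretches with more reads than a control are listed as regions. The 4 samples were 2 replicates of UNC-62 ChIP and 2 replicates of Input, the lysate DNA taken before the pull-down. All came from embryos of the strain OP600, with hermaphrodite given as the sex and the genotype unc119(ed3) with the transgene wgIs600, in which unc-62 carries TY1, EGFP and FLAG tags beside an unc119 gene. The strain was made by bombardment, was outcrossed 3 times and was grown at 20 °C, and the pull-down used antibodies to GFP, so the lists show where the tagged copy of the protein was found. Of the 3 lists of regions, 1 came from each ChIP replicate and 1 from the series, and none of them was for Input.

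UNC-62 is a worm member of the MEIS and Homothorax class of homeodomain proteins. Such proteins bind short DNA elements, often together with PBC proteins such as CEH-20 and with Hox proteins, and unc-62 is needed for the patterning of the embryo. In animals generally, a regulatory gene can have several separate binding elements for the same factor spread over its promoter, introns and flanks. Which genes hold the loci below was not analysed here, because the gene positions at hand are on the WBcel235 assembly and the regions are on WormBase WS220. All positions are therefore WS220 coordinates with no gene named, and no sequence of a region is shown.

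Each region carries 1 value, read here as a q-value (a p-value corrected for the number of regions), and a smaller one marks a stronger region. It reflects sequencing depth and enrichment together, so it orders regions within a list and does not compare the amount of binding between lists. The replicate 1 list held 7782 regions and the replicate 2 list 3138. The largest value was 0.000997 in the series list and 0.000998 in replicate 2, but 0.00999 in replicate 1, so a missing region in replicate 2 was also held to a stricter limit. The lists give no read counts, and the depth is unknown. Whether the replicates were separate cultures is not stated in the labels.

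In strength the members resembled other narrow regions more than broad ones. Their median width was 348 bp, with quartiles of 245 and 495 bp, whereas the 6842 other narrow regions had a median of 299 bp and quartiles of 204 and 407 bp. The median q-value was 3.98e-08 in members and 3.39e-07 in other narrow regions, against 3.71e-34 in the 416 regions of 800 bp or more. Among the strongest 796 regions of the list were 72 members (10.2% of members), 459 other narrow regions (6.71%) and 265 broad ones (63.7%). Both narrow sets thus lay far from the broad regions in strength. Under 20 bp wide were 9 members, against 121 of the other narrow regions.

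Most members sat near the lower limit of crowding. Exactly 4 neighbours were counted for 404 of the 706, at least 6 for 106, and the highest number was 8. A further 862 narrow regions had 3 neighbours and so fell just outside. The distance to the neighbour that decided membership reached 4999.5 bp among members and began at 5001.5 bp among narrow regions left out. At the width limit, the widest members measured 796 bp (X 2044986 to 2045781), 795 bp (II 13013974 to 13014768) and 788 bp (V 11531757 to 11532544). The narrowest crowded regions left out measured 800 bp (X 14562175 to 14562974), 802 bp (IV 16494106 to 16494907) and 803 bp (X 16387848 to 16388650).

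Most members met the rule without broad neighbours. A broad region was among the neighbours of 253 members (35.8%), and 556 members (78.8%) kept at least 4 neighbours when broad regions were not counted as such. Fewer met it on supported neighbours alone. With only neighbours that overlapped a region of at least 1 replicate counted, 499 members (70.7%) still had 4, and with only neighbours found in both replicates counted, 92 members (13.03%) did.

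The 192 loci were made by joining each member with every region whose midpoint lay within 5 kb of it. They held 1299 regions, or 16.3% of the list, of which 706 were members, 469 other narrow regions with fewer neighbours and 124 broad. A locus had a median of 6 regions and 3 members and a median length of 8.66 kb, with quartiles of 7.18 and 11.4 kb. The smallest loci had 5 regions, which the rule makes the minimum, and this number was found at 80 loci. At the other end, 23 loci had at least 10 regions, and the 58 loci with at least 5 members held 391 of the 706 members (55.4%). The plot of members per locus shows this long tail.

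**Figure D1:**
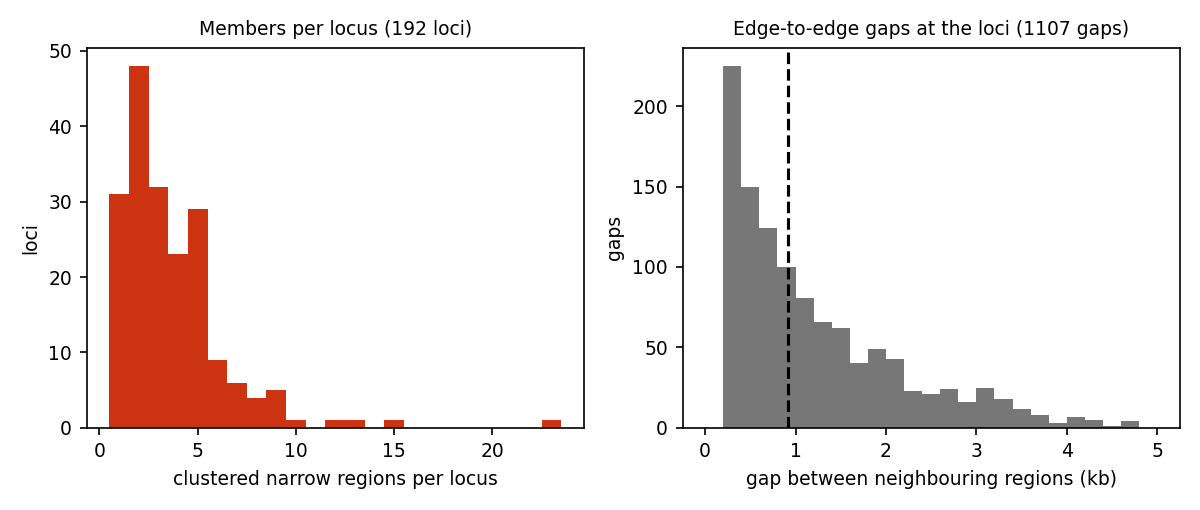
Left, the number of clustered narrow regions at each of the 192 loci; right, the edge-to-edge gaps between neighbouring regions of a locus in kb, with the median of 0.913 kb as a dashed line. Most loci have few members and a single locus has 23; the gaps begin at 201 bp and thin out above 2 kb.

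Regions within a locus were separated by clear gaps. Over 1107 gaps the median distance from edge to edge was 913 bp (95% interval of the median 843 to 971 bp), with quartiles of 463 and 1701 bp. Midpoints lay a median of 1.39 kb apart. Over the whole list, by contrast, the median gap was 4.95 kb, a difference that the rule itself makes. The smallest gap was 201 bp in the series list, 201 bp in the replicate 1 list and 203 bp in the replicate 2 list. Neighbours closer than that were never listed apart, so sites less than about 200 bp apart cannot be told from 1 wider region. Another region lay within 500 bp of 354 members (50.1%), against 712 of the other narrow regions (10.4%). Regions covered a median of 28.5% of the length of a locus in the series list, 22.3% in replicate 1 and 10.7% in replicate 2.

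Few members shared a region of a replicate with a neighbour. A replicate 1 region bridged a member and another series region for 6 of the 602 members it matched (0.997%), against 18 of 5724 other narrow regions (0.314%). A replicate 2 region did so for 2 of 288 members (0.694%), against 4 of 2372 other narrow regions (0.169%). In the opposite sense, 7 of the 602 members spanned 2 or more regions of replicate 1 (1.16%), against 23 of the 5724 other narrow regions (0.402%). For replicate 2, 1 of the 288 members did so (0.347%), against 3 of the 2372 other narrow regions (0.126%). Nearly all members with a match in a replicate thus had a region of their own there.

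Replicate support of the members was close to that of the list as a whole. Of the 706 members, 602 overlapped a region of replicate 1 (85.3%, exact 95% interval 82.4 to 87.8%), where 84.6% of all series regions did. A replicate 2 region was met by 288 members (40.8%, interval 37.1 to 44.5%), with 37.9% over the list. Both replicates held 278 members (39.4%, interval 35.8 to 43.1%), with 36.7% over the list. At least 1 replicate held 612 (86.7%, interval 83.955 to 89.1%), with 85.8% over the list. The shares for both replicates were 33.4% in other narrow regions and 86.3% in broad regions. Regions of a locus are not independent, and the series list comes from the same experiment as the replicate lists, so no test was made of these differences.

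Support went with strength inside and outside the loci. The list was divided into 5 steps of equal size, from the smallest q-values to the largest. In the strongest step 150 of 152 members were found in both replicates (98.7%), beside 98.9% of other narrow regions. In the second step the shares were 66.0% of 153 members and 64.4% of other narrow regions, and in the third 17.3% of 139 members and 19.1% of other narrow regions. The fourth step had 3 of 130 members in both replicates (2.31%) and 1.31% of other narrow regions, and the weakest had 0 of 132 members (interval up to 2.76%) and 0.274%. At equal strength, each share in other narrow regions lay within the interval of the members. These intervals treat regions as independent and span 57.9 to 73.5% in the second step, so the shares were not shown to be equal.

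**Figure D2:**
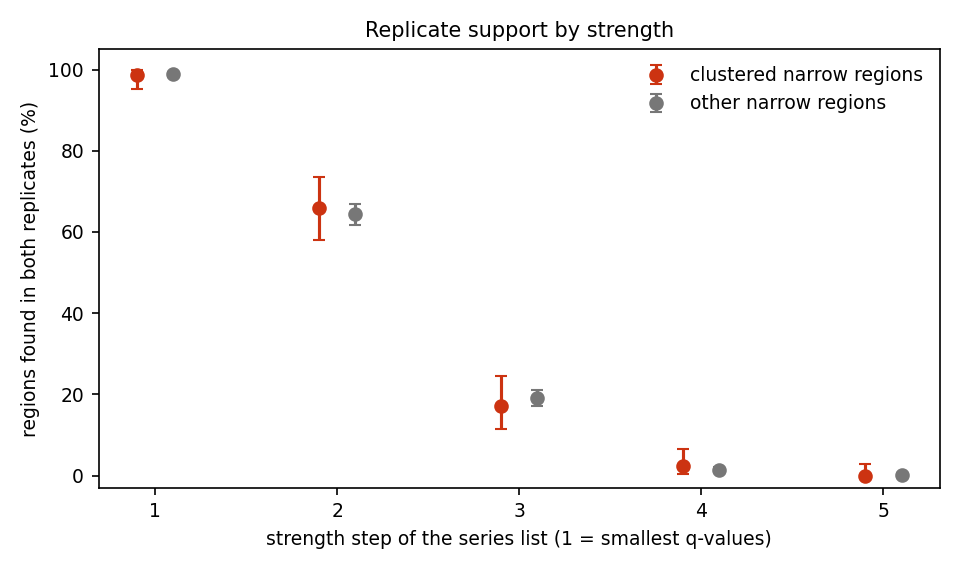
Percentage of regions found in both replicates (y axis) in 5 strength steps of the series list (x axis), for clustered narrow regions and other narrow regions; bars are exact 95% binomial intervals over regions. Both sets fall together, with 98.7% of members and 98.9% of other narrow regions in step 1.

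By their medians, members without support were weaker and narrower than supported ones, and the same held for other narrow regions. Those in both replicates, 278, were 464 bp wide at the median and had a median q-value of 1.4e-17. The 324 found in replicate 1 only had medians of 3.64e-06 and 304 bp, and the 94 found in neither had medians of 0.000222 and 180 bp. These were 45.9% and 13.3% of members, beside 47.9% and 14.2% of all series regions. In other narrow regions the medians were 3.38e-16 and 401 bp in both, 3.65e-06 and 271 bp in replicate 1 only, and 0.000235 and 164 bp in neither. The groups of members overlapped, as 1 member in neither replicate, X 16358894 to 16359235, was 342 bp wide with a q-value of 1.04e-07. In replicate 2 alone were 10 members (1.42%), beside 99 of all series regions (1.24%). Of the 278 in both, 242 had the smaller q-value in replicate 1 (87.1%), beside 89.4% over all series regions in both, and 36 had it in replicate 2.

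The strongest members were listed in every library. The first was IV 13703846 to 13704544, 699 bp wide, with a q-value of 1.29e-154 in the series list, 2.62e-119 in replicate 1 and 1.57e-73 in replicate 2. Next came III 7554568 to 7555184 (617 bp), with 1.86e-134 in the series list, 6.55e-94 in replicate 1 and 6.98e-61 in replicate 2. The third was X 2046080 to 2046746 (667 bp), with 5.3e-104, 8.72e-76 and 1.45e-35 in the same lists. These 3 ranked 12, 24 and 36 among all 7964 regions, so a few crowded narrow regions stood among the strongest of the genome. The other members of the first 10 were found in both replicates too, with q-values of 5.5e-77 to 2.08e-60 in the series list.

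Regions of the same locus often differed widely in strength. From the strongest to the weakest region of a locus the q-value changed by a median of 24.8 powers of 10. The strongest region of a locus was found in both replicates at 173 of the 192 loci (90.1%), whereas at 0 loci were all regions found in both. Neither count is particular to the loci, since the region was picked by its q-value and support went with strength over the list. Of all series regions, 36.7% were in both replicates. The strongest region was a member at 74 loci, a broad region at 59 and a narrow region with fewer neighbours at the other 59. Where a locus had a broad region, that region was the strongest at 59 of 77 loci, and 115 loci had none. The strongest region was the first or last of its locus at 53 loci (27.6%), where the share of positions that are first or last averaged 32.5% over the loci. Not every locus had a strong region, since at III 8501358 to 8511178 the smallest q-value was 1.32e-06 and no region was in both replicates.

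Support differed widely from locus to locus. At least 1 region was in both replicates at 181 loci (94.3%), and at least 5 regions were at 24 loci. Each locus had at least 5 regions, and 36.7% of all series regions were in both replicates. Every region was found in replicate 1 at 79 loci. No locus lacked replicate 1 altogether, while 10 had no region in replicate 2. The longest of those 10 was V 6467196 to 6483479, 16.3 kb long, where 9 of 11 regions were in replicate 1 and 0 in replicate 2, with a smallest q-value of 2.61e-14 in the series list. At another, IV 560187 to 565456, regions of replicate 1 covered 48.6%, those of the series list 64.8% and those of replicate 2 0%. These loci show that a dense stretch of replicate 1 regions was not always seen in replicate 2.

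The same rule was then applied to each replicate list by itself. The replicate 1 list gave 738 clustered narrow regions at 191 loci, and 437 of them (59.2%) overlapped a member, while 432 members (61.2%) overlapped one of them. The replicate 2 list, which is shorter, gave 99 at 20 loci, of which 63 (63.6%) overlapped a member, and 63 members (8.92%) overlapped one of them. Of the 192 loci, 138 (71.9%) met a locus of replicate 1 and 19 (9.9%) met a locus of replicate 2. All 19 also met a locus of replicate 1, and 54 loci (28.1%) met neither. List length matters for these counts, since the strongest 3138 regions of replicate 1, as many as replicate 2 lists, gave 37 clustered narrow regions. At that equal length replicate 1 thus gave fewer than the 99 of replicate 2. The largest locus under the rule held 24 regions in the replicate 2 list and 22 in the full replicate 1 list.

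The 19 loci that the rule found in all 3 lists were spread over the 6 chromosomes. By number of regions in both replicates, the first was on X from 16343357 to 16380394, with 17 of 30 regions. It was followed by II 6820950 to 6839285, with 13 of 15 regions in both replicates, and IV 13689235 to 13708336, with 10 of 12. The chromosome II locus was the most thickly covered of these 3, at 69.1% in the series list, 66.6% in replicate 1 and 46.4% in replicate 2, and 8 of its 15 regions were broad. The chromosome IV locus held the strongest member of all and, as its strongest region, a broad one of 1009 bp with a q-value of 1.16e-295.

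**Figure D3:**
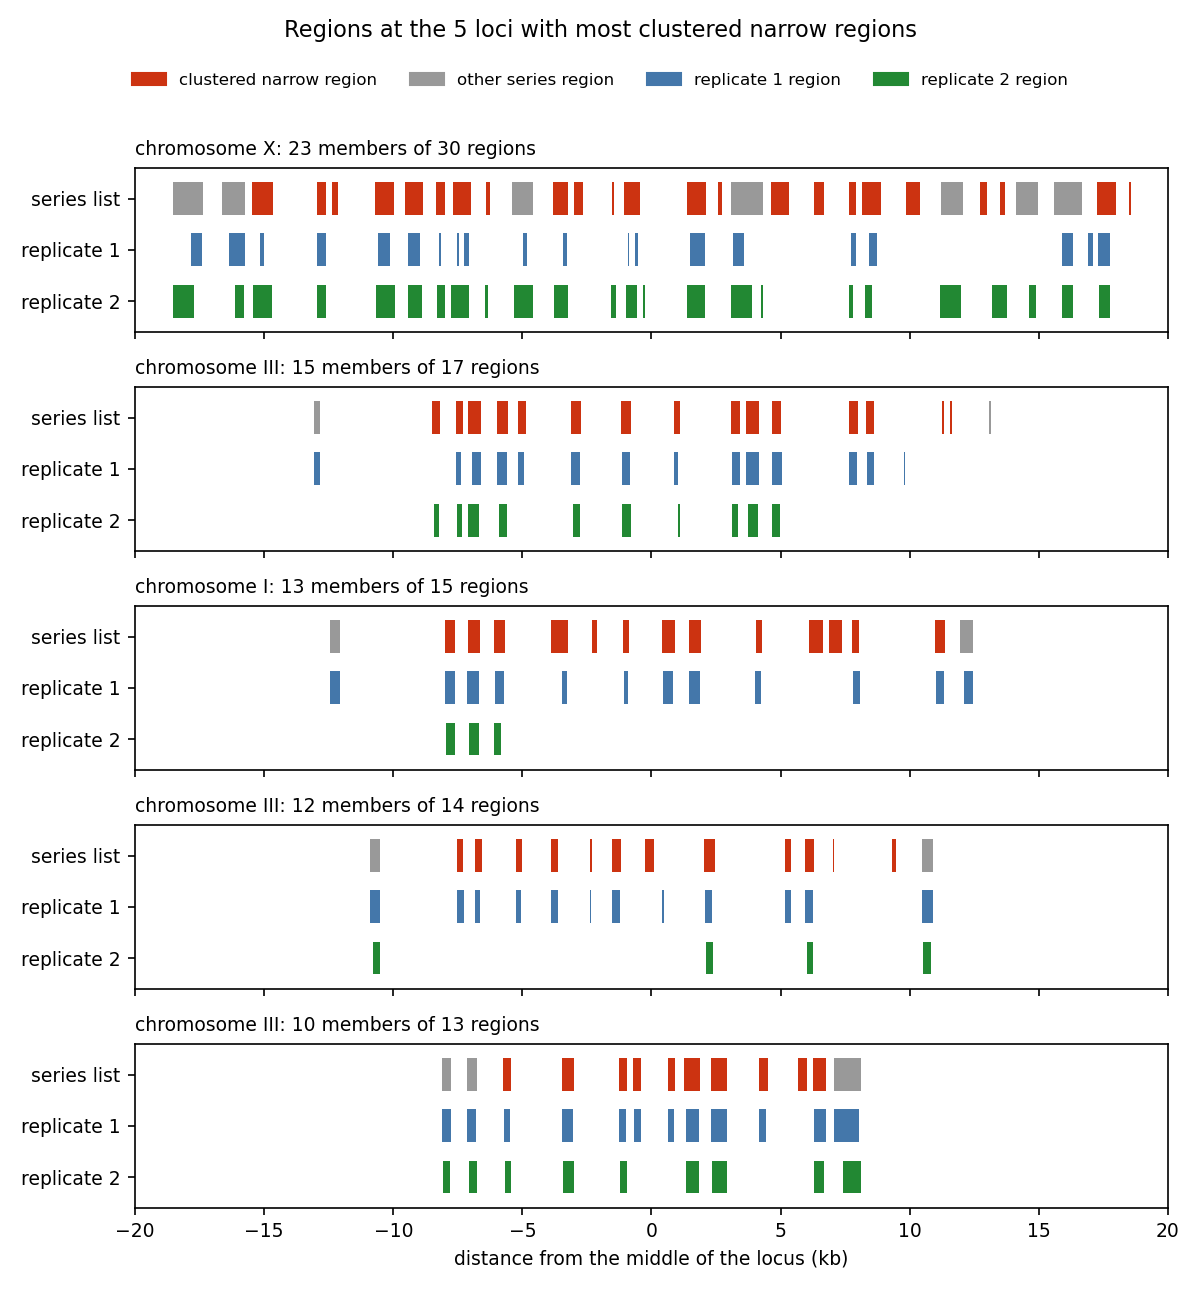
Regions of the series list, replicate 1 and replicate 2 at the 5 loci with most members, by distance from the middle of the locus in kb; each bar is a region, drawn to scale except that those under 60 bp are drawn 60 bp wide. The X locus with 23 members has more bases covered in replicate 2 than in replicate 1, while at the chromosome I locus replicate 2 has 3 regions against 12 in replicate 1.

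The locus with most members was the X locus from 16343357 to 16380394, 37.0 kb long. It held 30 regions, of which 23 were members and 7 broad, with gaps of 240 to 1842 bp. Its members were 16 to 783 bp wide, and their q-values ran between 2.52e-22 and 0.000558. None of its regions was among the strongest 796 of the list, the smallest q-value being 1.21e-23, in a broad region of 1259 bp. The median q-value was 3.84e-11 over its 30 regions and 8.88e-08 over its 23 members, against 1.21e-07 over the whole list. It was a long run of stronger and weaker regions rather than 1 strong site with weak neighbours.

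At this X locus the usual order of the replicates was turned round. Replicate 2 held 22 of its 30 regions and replicate 1 held 17, and this was the only locus of the 192 with more regions in replicate 2. Replicate 2 covered 11100 bp of it (30.0%) and replicate 1 covered 5786 bp (15.6%), a ratio of 1.92, where the median locus had a ratio of 0.501 and the whole lists 0.47. A ratio above 1 occurred at 1 other locus, X 2610096 to 2620746, with 1341 bp in replicate 2 and 1141 bp in replicate 1. Of its 17 regions found in both, 11 had the smaller q-value in replicate 2, including 8 of 12 members. Elsewhere, 28 of 266 members found in both replicates had the smaller q-value in replicate 2 (10.5%).

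**Figure D4:**
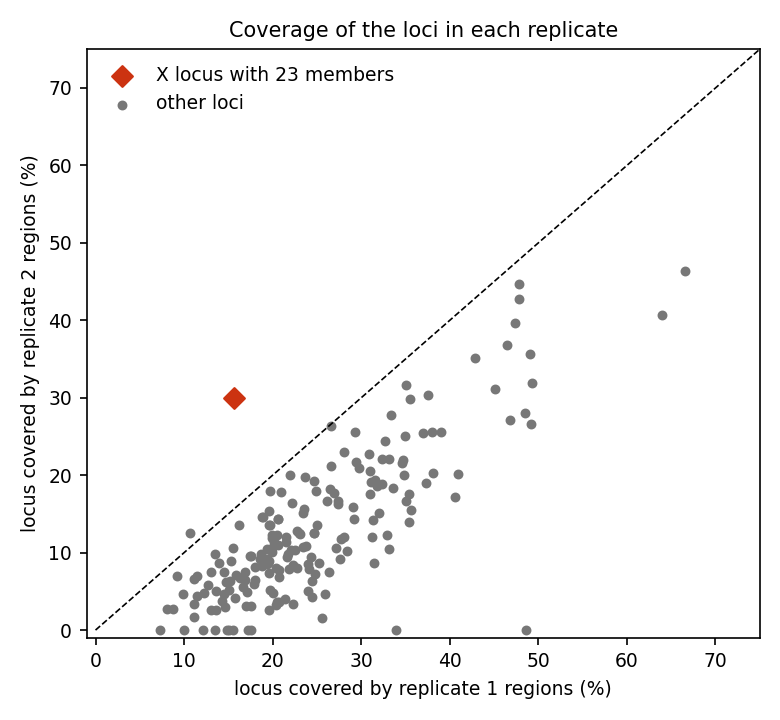
Percentage of each locus covered by replicate 2 regions (y axis) against replicate 1 regions (x axis); each point is a locus and the dashed line marks equal coverage. The X locus with 23 members, at 15.6% in replicate 1 and 30.0% in replicate 2, lies above the line, as does 1 other locus narrowly.

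Single regions of the X locus show the same contrast. The member X 16354204 to 16354896 had a q-value of 4.62e-15 in replicate 2, where it was 708 bp wide, and 0.000905 in replicate 1, where it was 189 bp wide. The member X 16375384 to 16375584 was listed in replicate 2 with 2.6e-10 and not in replicate 1. By contrast, its strongest member, X 16363263 to 16363993, had the smaller q-value in replicate 1, with 2.13e-11 there and 2.53e-10 in replicate 2. Such values do not compare the amount of binding between the lists. The next 4 by strength were also in both replicates, with series q-values of 3.24e-22 to 3e-17. Of its 5 weakest members, with q-values of 2.53e-05 to 0.000558, 3 were in neither replicate and 2 in replicate 2 only. Altogether 8 of the 23 members of this locus were in neither replicate, a larger share than the 13.3% of all members and the 14.2% of all series regions. With this locus left out, 38.9% of the remaining 683 members were in both replicates and 87.4% in at least 1, and 7 were in replicate 2 only.

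A stretch of 6871 bp separated this locus from another, X 16387266 to 16392543. In 5.28 kb it held 7 regions, of which 6 were members, at gaps of 236 to 556 bp. Here the replicates kept the usual order, with 49.1% covered in replicate 1 and 35.6% in replicate 2. Its member X 16389848 to 16390312 was among the 10 strongest, with 8.84e-69 in the series list, 1.57e-45 in replicate 1 and 1.7e-29 in replicate 2. The reversed order of the replicates was thus not seen at this nearest locus.

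Chromosome III held the locus with the next most members, from 8281292 to 8307460, with 15 members among 17 regions in 26.2 kb and no broad region. Of its members, 12 were in replicate 1, 10 in replicate 2 and 9 in both. Its strongest member, III 8299033 to 8299413 (381 bp), had q-values of 3.55e-38 in the series list, 1.62e-25 in replicate 1 and 1.9e-12 in replicate 2. The next 4, at 4.94e-21 to 2.74e-14, were in both replicates as well. The 5 weakest ran between 6.76e-08 and 0.000271, and of these 2 were in replicate 1 only, 1 in replicate 2 only and 2, of 81 and 21 bp, in neither. This locus was thus built of narrow regions alone, and its weak members lay towards its ends and between stronger ones.

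The third locus was I 429067 to 453997, with 13 members among 15 regions in 24.9 kb. Replicate 1 held 10 of its members and replicate 2 held 3. Those 3 were neighbours near one side, I 433534 to 433934, I 434440 to 434892 and I 435423 to 435840, with series q-values of 7.27e-32, 8.61e-33 and 7.18e-15. The rest of the locus was far weaker, from 2.29e-09 to 0.00074, and of its 5 weakest members 3 were in neither replicate. The locus therefore joined a small strong group, seen in both libraries, to a long tail seen in replicate 1 or the series list.

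Of the next 7 loci by number of members, 4 lay on chromosome III. The first of these, III 9965355 to 9987130, had 12 members, 9 of them in replicate 1 and 2 in both replicates. The second, III 7544144 to 7560373, had 10 members, 9 in replicate 1 and 6 in both, and held the second strongest member of all. The third, III 7716582 to 7736745, had 9 members, 6 in replicate 1 and 3 in both. The last, III 7524129 to 7538078, had 9 members, 8 in replicate 1 and 6 in both, and lay 6065 bp from the second. Together the neighbouring loci from 7524129 to 7560373 were among the best supported, with 9 of 13 and 8 of 11 regions in both replicates.

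The remaining 3 of these loci had 9 members each. On IV, the locus from 3837569 to 3862071 was 24.5 kb long with wide gaps, a median of 1426 bp, and had 8 members in replicate 1 and 1 in both. On II, the locus from 9296910 to 9316069 had 8 members in replicate 1 and 4 in both, and its strongest region was a broad one of 1289 bp with a q-value of 4.64e-102. The locus II 8889702 to 8903400 had all 9 members in replicate 1 and 3 in both. The locus with most members on V was 13016644 to 13025556, with 8 regions, all members, of which all 8 were in replicate 1 and 2 in replicate 2. Replicate 1 thus held most members of each of these 4 loci, and replicate 2 held 1 to 5 of them.

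Some loci were very compact. The shortest, I 851051 to 853464, packed 5 members into 2.41 kb with a median gap of 347 bp, of which 4 were in replicate 1 and 0 in replicate 2. The next, IV 6645358 to 6649169, packed 5 members into 3.81 kb with a median gap of 344 bp. There 4 were in both replicates, and the strongest had a q-value of 4.24e-57. These loci, alike in number of regions and in median gap, differed in strength and in replicate support. The most thickly covered locus was V 4486612 to 4492096, with 5 regions over 76.6% of 5.49 kb, 3 of them members.

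Members made up different shares of the regions of each chromosome. The share was highest on III, with 155 of 1347 regions (11.5%, interval 9.85 to 13.3%), and lowest on X, with 102 of 1537 (6.64%, interval 5.44 to 8.0%). The other 4 chromosomes lay between 8.16 and 9.27%, beside 8.86% over the list. X was thus low in members although its regions per Mb (87.0) outnumbered those of II (83.4), IV (72.2) and V (54.9). Without the locus of 23 members, its share was 5.24% of 1507 regions, while the shares of the other chromosomes were not computed without their largest loci. Intervals treat regions as independent, which regions of a locus are not, and the rule itself depends on how densely regions lie.

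The share of members found in both replicates ran from 27.0% on I to 49.2% on II. All series regions of these chromosomes had shares of 32.5% on I and 38.5% on II. Members of I were in replicate 2 in 28.6% of cases and those of II in 50.0%. Their median widths were 344 bp on I and 366 bp on II, and their median q-values 6.7e-08 and 2.22e-09. Support and median q-value did not run in the same order over the chromosomes. X, with a median q-value of 6.34e-08, had 38.2% of its members in both replicates, and V, with 1.11e-08, had 34.3%.

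Place along the chromosome differed too. In the central 50% of the length lay 82.6% of the members of III, 80.5% of those of II and 78.4% of those of V, where all series regions had 61.2, 62.9 and 66.9%. On I the share was 59.5% of members and 59.0% of all regions, and on IV it was 51.5% and 57.5%. On X it was 37.3% of 102 members and 51.98% of all regions. Without the locus of 23 members, 48.1% of the other 79 members of X were central, and without the adjacent locus as well 52.05% of 73 were. No locus was left out in this way on the other chromosomes. The share of members thus lay above that of all regions by more than 10 percentage points on II, III and V. It lay below that of all regions on IV and X, and next to it on I. The share of all X regions was not computed without the adjacent loci, so the reduced member shares have no matching value. No test was made of these differences.

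**Figure D5:**
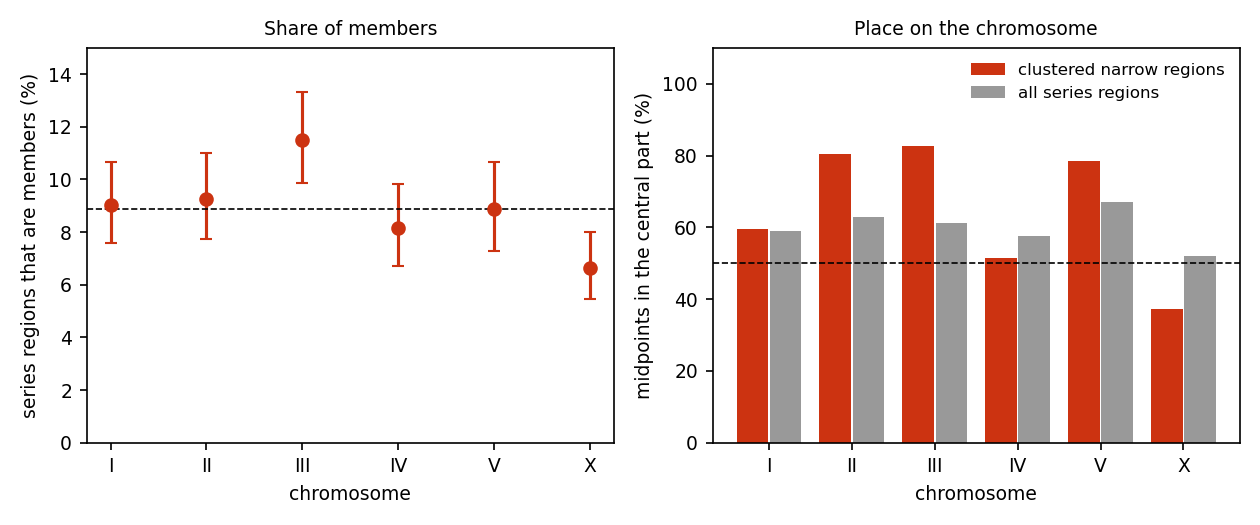
Left, the percentage of series regions of each chromosome that are clustered and narrow, with exact 95% intervals over regions and the 8.86% of the whole list as a dashed line; right, the percentage of midpoints in the central part of each chromosome for members and all series regions, with 50% as a dashed line. Chromosome III is highest and X lowest on the left, and II, III and V have the most central members on the right.

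Loci themselves were mostly far apart, with a median of 288 kb between neighbours on a chromosome, yet 34 of the 192 lay within 50 kb of another and 14 within 20 kb. The closest pair was on II, where 1.45 kb separated the locus that ends at 6839285 from that beginning at 6840735. Of the 7 such close pairs, 2 were on X, 2 on II and 1 each on III, IV and V. The other 6 pairs were 6065 to 18969 bp apart.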

How the data were processed

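The 3 deposited lists, 1 per UNC-62 ChIP replicate and 1 for the series, were made by the authors with PeakSeq (named in each file's source column), on WormBase WS220, per the file headers. For the PeakSeq version, aligner, filters and making of the series list, details were not given in the sources used here. Each region has 1 deposited value, read as a q-value (a corrected p-value): multiplied by the region's number it never fell along those numbers (0 decreases per list), while the value itself fell 2604, 4135 and 1321 times in the series, replicate 1 and replicate 2 lists.

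From these lists the rule, loci and overlaps (at least 1 bp) were computed in Python 3.11.15 with numpy 2.4.6, pandas 2.3.3 and scipy 1.17.1, after they were tested on simulated data. A region's q-value in a replicate is that of its strongest match. Intervals are exact 95% Clopper-Pearson intervals, which cover counting of regions only. Chromosome length is the highest region end in any list. Loci named are the 10 with most members and the first of each chromosome. For the first 3 of them the 5 strongest and 5 weakest members are described. Other loci and regions named for strength, support, compactness or a close neighbour were chosen after their values were seen. Members and rules were chosen with earlier results of these data known. Gene assignment, gene lists and motifs were not run, for want of a WS220 annotation and genome.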

Additional observations from a re-analysis of the deposited data

How the results depend on the processing

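Of 62 values under alternatives, 33 stayed within 1.5 times the main count or within the 95% interval of the main value, and 29 moved. Numbers follow the limits chosen. The 706 members and 192 loci became 1568 and 431 with at least 3 other regions, 106 and 30 with at least 6, 58 and 32 with midpoints within 2.5 kb, 2148 and 442 within 10 kb, and 86 and 29 in the stronger 50% of the list. In the replicate 2 list they were 99 and 20. Added after seeing the data, the rule gave 425 members with regions found in at least 1 replicate, and 48 members at 14 loci with those found in both. The 738 clustered narrow regions of replicate 1 became 262 with q-values under 0.001 and 37 with the list cut to the length of replicate 2. The 39.4% of members in both replicates moved to 30.4% with a width limit of 500 bp, 45.1% with none, 35.7% with at least 3 other regions, 81.4% in the stronger 50%, 34.8% with 50% reciprocal overlap and 34.7% with midpoints within 100 bp. The 86.7% in at least 1 replicate moved to 83.9% at 500 bp, 98.8% in the stronger 50%, 80.0% with reciprocal overlap, 83.4% with midpoints within 100 bp and 72.2% with all lists under 0.001. Leaving out a replicate gave 40.8 to 85.3%, the lower without replicate 1. Each of these settings changes the regions or matches counted by construction. Joining regions under 200 bp apart changed nothing, since none were that close, and its values are counted among the 33 although they could not move. No paired analysis was possible because regions of Input were not analysed here. The gene body alternative was not run for want of an annotation on WS220. With no read counts, the limit that depth sets on replicate 2 is unknown.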
